A study of Homo sapiens with 8 samples.

Results

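Solute carriers (SLC) are the largest family of membrane transporters. They move amino acids, sugars, ions, metals, nucleosides, vitamins and organic acids across the plasma membrane and organelle membranes. Their genes are numbered by family, so that SLC2 genes encode facilitative glucose transporters and SLC25 genes encode carriers of the inner mitochondrial membrane. Some carriers work as pairs of proteins: SLC3A2 is the glycoprotein heavy chain that brings several SLC7 light chains to the cell surface. In mammary epithelium carriers supply the amino acids, glucose and ions used for growth and secretion.

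The genes described here were those whose symbol in the authors' deposited table began with SLC and a number. Of 227 probe sets with such a symbol, the brightest over the 8 arrays stood for each of 141 genes. A gene was kept when the mean signal of any of the 4 groups was 64 units or more, which left 75 genes of the 8926 genes named in that table. Grouped by substrate, 10 carry amino acids, 6 sugars, 10 inorganic ions, 10 metals, 4 nucleosides or nucleotide sugars, 7 monocarboxylates and other organic solutes, 2 osmolytes or creatine, and 4 vitamins or lipids. A further 12 are mitochondrial carriers and 6 have other or unknown substrates. The other 4 are not transporters: SLC4A1AP, SLC2A4RG and SLC9A3R1 (now NHERF1) are named after a carrier, and SLC6A10P is a pseudogene copy of the creatine transporter gene SLC6A8. Of the 75, 54 reached the limit in all 4 groups, 12 in CD24hi only, 6 in MSP groups only and 3 in CD24hi and some MSP groups. Just inside the limit, by their highest group mean, were SLC45A4 (65.2 units), SLC6A11 (67.7) and SLC25A37 (71.3), and just outside were SLC43A1 (58.5), SLC8A1 (56.5) and SLC2A11 (54.2).

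Total RNA came from HMLE cells, an immortalised line of human mammary epithelial cells grown in MEGM, a serum-free mammary epithelial medium. CD24hi cells had been sorted for the surface protein CD24, and MSP1, MSP2 and MSP3 are 3 mesenchymal subpopulations from within the same line. Each of the 4 groups had 2 single-colour Affymetrix arrays, lettered a and b, and no treatment, time or age was labelled. How the mesenchymal subpopulations were isolated, and whether a and b are separate cultures, is not given in the sources used here. All 4 groups derive from 1 line, so each p-value reflects how far arrays of that line differed, a spread that may be technical, and with 2 arrays a group no value is precise.

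Signals were on a linear scale set by the authors to the same trimmed mean of 150 on every array, and 57.6% to 60.3% of probe sets per array lay under 32 units, which served here as the limit of a dim signal. Of 7 epithelial markers, 7 were lower on every MSP array than in CD24hi and 6 passed the test described below, with CDH1 at least 136-fold lower. Of 7 mesenchymal markers, 7 were higher on every MSP array and 4 passed, with COL1A2 75.9-fold higher. In each list 3 of the 7 (KRT14, KRT8 and ESRP1; FN1, ZEB1 and COL3A1) have a name only through the authors' call. The summed signal of leukocyte markers reached at most 72.4 units on any array, that of endothelial markers 96.6, of adipocyte markers 75.1 and of melanocyte markers 12.8. Only 3 of 4 leukocyte, 3 of 4 endothelial, 1 of 3 adipocyte (FABP4) and 1 of 3 melanocyte (TYR) markers had a named probe set. The sums therefore do not cover the full lists. In bulk RNA, fewer cells of a type and less RNA per cell cannot be told apart. Differences are given as the mean log2 signal of the 3 MSP groups minus that of CD24hi, with the standard error (SE) of a limma fit over 54613 probe sets, and a gene was called where the Benjamini-Hochberg adjusted p was under 0.05. Where the dimmer side lay under 32 units the fold is a lower bound, written "at least".

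The authors' table lists first the 2256 probe sets with p of 0.05 or less in all 3 of their comparisons against CD24hi, and then probe sets in array order as far as the 14644th of the array. Hence 22 of the 75 genes have a name only because the authors had called them. Their differences from CD24hi were fixed by that choice and are given without a test, marked "listed for its call". The other 53 were named by their position on the array, whatever their change, and these are tested below. A background of 3518 genes named the same way with a group mean of 64 or more was treated identically.

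Most carriers named by position did not pass the test between the mesenchymal mean and CD24hi. Of the 53, 5 were called (1 higher, 4 lower), or 9.43%, against 5.23% of the background genes (2.25% higher, 2.98% lower). The limma p before adjustment was under 0.05 for 11, a count not made over the background, so nothing is read from it. The gene that rose was SLC4A8, and those that fell were SLC1A3, SLC1A6, SLC20A2 and SLC29A2. All but SLC20A2 reached the limit of 64 in some groups only, so that some difference was needed for them to be kept. Of the 46 genes named by position that reached it in every group, SLC20A2 was the only one called. The 6 MSP arrays lay all above both CD24hi arrays for 5 of the 53 genes, against 15.2% of the background, and all below for 14, against 15.9%. For the other 34 the arrays overlapped; 31% of the background genes did not overlap in either direction. The median difference over the 53 was -0.21 log2, and that of the background 0.01. The 22 genes listed for their call had a median of -1.07, from which nothing is read because the call chose them.

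**Figure D1:**
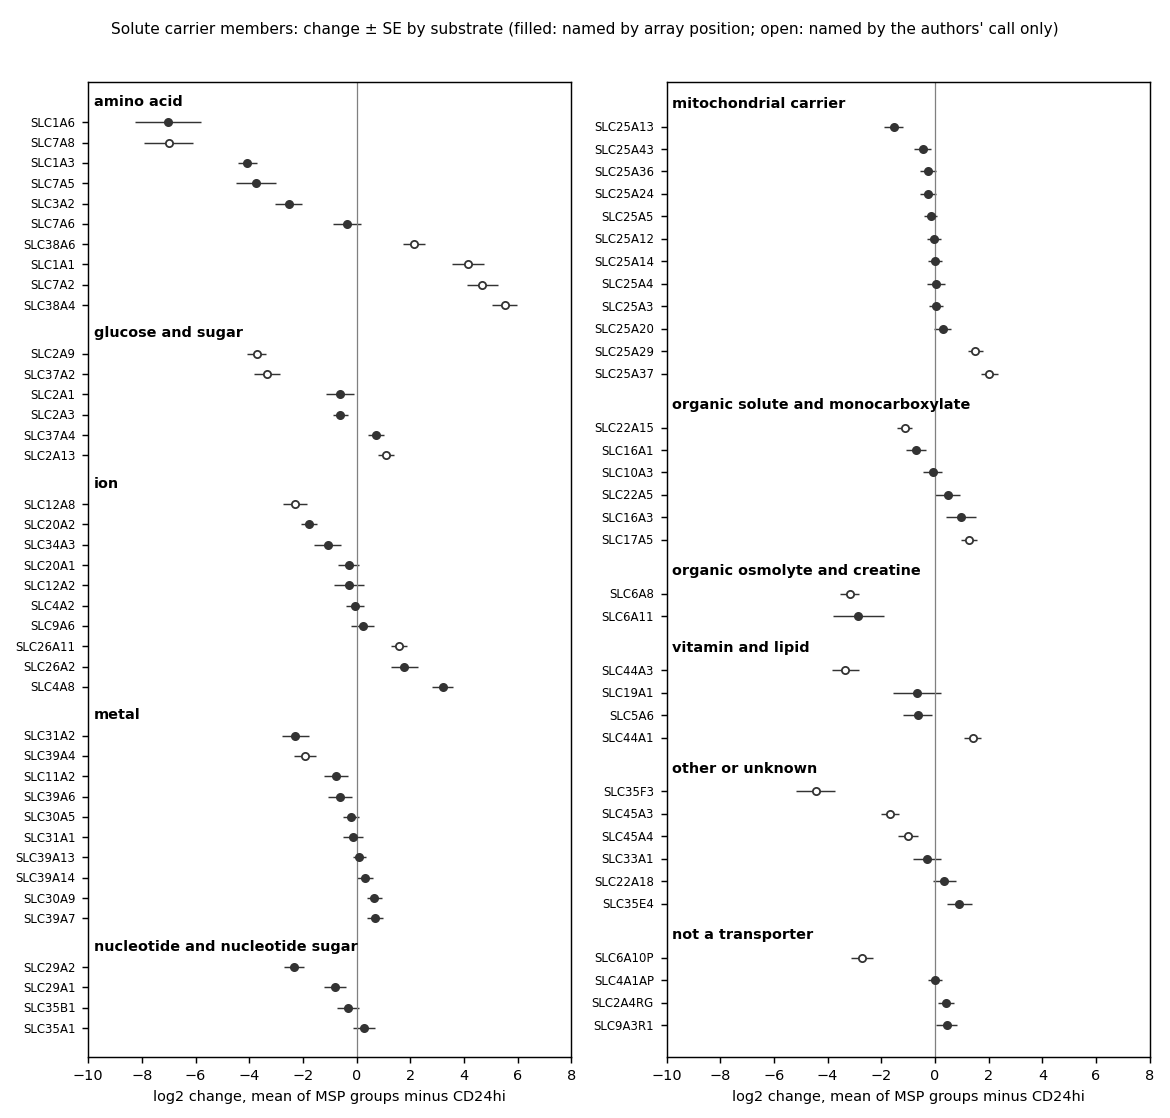
Difference in log2 signal between the mean of the 3 MSP groups and CD24hi (x axis) for the carriers reported here, in rows by substrate; filled points were named by array position, open points through the authors' call, and bars are the SE. As fitted, amino acid carriers span from SLC1A6 at -7.02 to SLC38A4 at 5.51, whereas mitochondrial carriers lie between -1.54 and 2.03.

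Carrier signals differed with the letter of the array, in opposite directions in CD24hi and in the MSP groups. In CD24hi, array a exceeded array b for 41 of the 53 genes (77.4%), against 43.7% of background genes, with a median difference of 0.63 log2 (background -0.12). In the MSP groups array b exceeded array a for 35 of the 53 genes in MSP1, 40 in MSP2 and 40 in MSP3, and the median a minus b differences were -0.23, -0.32 and -0.22 (background 0.01, -0.00 and 0.01). More than 2-fold differences between the CD24hi arrays were seen for 22 of the 53 genes (41.5%; background 24.2%). By substrate, counted over all 75 genes, CD24hi a exceeded b for 10 of 10 amino acid, 10 of 10 ion, 7 of 7 organic solute and 5 of 6 sugar carriers. So it did for 4 of 4 vitamin or lipid carriers, 6 of 6 with other or unknown substrates and 3 of 4 nucleotide carriers. For metal carriers the count was 6 of 10 and for mitochondrial carriers 6 of 12. It was 1 of 2 for osmolyte or creatine carriers and 1 of 4 for genes that are not transporters. Compared among a arrays alone the median difference between MSP and CD24hi was -0.63, and among b arrays alone 0.14. The same sign was found in both for 26 of 53 genes (49.1%; background 52.3%). Without CD24hi array a the median of the 53 was 0.08 and without array b -0.44. Of the 53, 22 changed sign when 1 or the other was left out, a count not made over the background. None of these was among the called genes, but a call already needs a difference wide against the spread. Labelling controls differed between these arrays too: the mean of 24 Bacillus control probe sets was 1164 on CD24hi a, 109 on CD24hi b and 304 to 451 on the MSP arrays, and the ACTB 3' to 5' ratio was 1.47 on CD24hi a, 1.10 on b and 1.13 to 1.25 on the others. Their part in the carrier results was not tested.

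**Figure D2:**
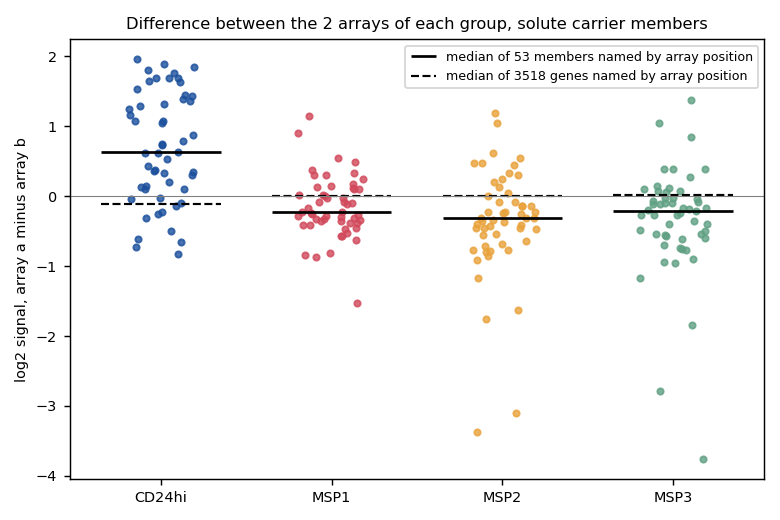
Array a minus array b, in log2 signal (y axis), for the 53 carriers named by array position, by group (x axis); lines mark the medians of the carriers and of the 3518 background genes. The carriers sit mostly above 0 in CD24hi (median 0.63) and mostly below 0 in the MSP groups (medians -0.23, -0.32 and -0.22), while the background medians stay between -0.12 and 0.01.

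As fitted, amino acid carriers spanned the widest range of differences among the substrate groups. The top of that range was a gene listed for its call and the bottom a gene dim on every MSP array. No result is therefore read from the range. Of the 10 genes, 5 were below both CD24hi arrays on every MSP array, 4 were above, and 1 overlapped. Of the 5 named by position, 4 lay below on every array (15.9% of background genes), and 2 of these, SLC1A3 and SLC1A6, fell by the test (2.98% of background genes). The 4 genes that were higher, SLC7A2, SLC38A4, SLC38A6 and SLC1A1, were all listed for their call, as was SLC7A8, which was lower.

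SLC7A5 is the LAT1 light chain, which exchanges large neutral amino acids such as leucine across the plasma membrane as a heterodimer with SLC3A2. The signals of SLC7A5 were 8889.9 and 5130.3 units in CD24hi, 191 and 553 in MSP1, 619.7 and 1920.0 in MSP2 and 184 and 659 in MSP3. Every MSP array was below both CD24hi arrays, and within each MSP group array b was higher than array a, by 2.89-fold, 3.10-fold and 3.57-fold. The geometric means, 6753 in CD24hi and 498 in MSP, stood 13.6-fold apart, but the difference of -3.76 ± 0.74 did not pass the test (limma adjusted p = 0.0606). The signals of SLC3A2 were 3614 and 2356 units in CD24hi, 307 and 551 in MSP1, 480.0 and 1084 in MSP2 and 316 and 587 in MSP3. Again CD24hi was above all MSP arrays and array b above array a in each MSP group; the ratio of means was 5.79, with a difference of -2.53 ± 0.49 and an adjusted p of 0.0565. Both genes did pass where the test was limited to probe sets of 64 units or more, to 1 probe set per named gene, or fitted with an intensity trend. In these settings 13.4%, 10% and 10.9% of background genes were called, against 5.23% in the main fit. SLC31A2 and SLC25A13, described below, passed in the same settings. Among a arrays the difference was -4.99 for SLC7A5 and -3.33 for SLC3A2, and among b arrays -2.53 and -1.74.

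The 250 bases before the annotated start of these genes, from RefSeq on GRCh38.p14, are shown because their products form 1 transporter and their signals were lower together. Capitals mark CACGTG, the E-box recognised by MYC, which lies 130 bases before the start of SLC7A5; SLC3A2 has none in this window.
SLC7A5, chr16:87869508-87869757, minus strand: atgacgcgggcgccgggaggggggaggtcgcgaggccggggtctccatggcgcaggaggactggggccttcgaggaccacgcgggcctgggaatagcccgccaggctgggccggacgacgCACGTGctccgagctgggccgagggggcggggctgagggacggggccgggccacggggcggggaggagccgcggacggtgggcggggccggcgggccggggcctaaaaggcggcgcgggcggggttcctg
SLC3A2, chr11:62881449-62881698, plus strand: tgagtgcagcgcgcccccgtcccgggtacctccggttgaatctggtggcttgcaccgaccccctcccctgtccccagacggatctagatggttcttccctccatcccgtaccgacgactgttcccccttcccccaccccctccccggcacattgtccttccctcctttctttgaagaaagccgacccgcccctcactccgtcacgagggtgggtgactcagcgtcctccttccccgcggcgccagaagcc
Of the 71 transporter genes, 56 had a promoter in the RefSeq table, and 3 motifs were searched in the same 250-base window on both strands. CACGTG occurred in 7 of the 56 (12.5%) and in 6.49% of 27305 promoters; it was found in 2 of 16 genes lower on every MSP array, in 2 of 12 that were higher and in 3 of 28 that overlapped. CAGGTG, an E-box bound by ZEB and SNAI repressors, occurred in 12 (21.4%) against 17.5%; the counts in these sets were 4 of 16, 2 of 12 and 6 of 28. TGATGNAA, a C/EBP-ATF element, occurred in 1 against 3.19%. CACGTG and CAGGTG end in the TG with which TGATGNAA begins, so that matches can overlap, and a match is a description of letters only.

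The gene list holds 2 other light chains that pair with SLC3A2. SLC7A8, the LAT2 light chain, is listed for its call, with signals of 1217 and 879 units in CD24hi, 0.777 and 10.1 in MSP1, 14.4 and 10.1 in MSP2 and 17.1 and 13.8 in MSP3. It was at least 32.3-fold lower in MSP, where every array was dim, and the difference was -7.01 ± 0.92, or -4.83 as the mean of its 5 probe sets. SLC7A6, the y+LAT2 light chain for cationic and neutral amino acids, gave 617 and 181 units in CD24hi, 204 and 301 in MSP1, 247 and 307 in MSP2 and 218 and 318 in MSP3. All 6 MSP arrays lay between the 2 CD24hi arrays, and the difference of -0.35 ± 0.52 did not pass (adjusted p = 0.798). SLC7A2, a cationic amino acid transporter that carries arginine without SLC3A2, is listed for its call. Its signals were 18.4 and 6.54 units in CD24hi, 222 and 414 in MSP1, 226 and 468 in MSP2 and 163 and 314 in MSP3, which made it at least 8.80-fold higher in MSP (4.68 ± 0.58).

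Among the SLC1 glutamate transporters, SLC1A3 and SLC1A6 were named by position and SLC1A1 was listed for its call. SLC1A3 (EAAT1), named by position, fell: its signals were 488 and 376 units in CD24hi, 7.13 and 12.97 in MSP1, 83.8 and 57.2 in MSP2 and 25.6 and 24.5 in MSP3. CD24hi was at least 13.4-fold higher, with a difference of -4.07 ± 0.36 (limma adjusted p = 0.00546). The call held without each array in turn and under every other setting, although the mean of its 4 probe sets gave -2.12. Among the mesenchymal groups the MSP2 arrays alone were above 32 units, and MSP2 did not pass the test against MSP1 or MSP3. SLC1A6 (EAAT4) fell from 349 and 139.6 units in CD24hi to between 0.239 and 5.09 on the MSP arrays, all dim. CD24hi was at least 6.90-fold higher (-7.02 ± 1.22; adjusted p = 0.0417), and the call was lost without any single array other than MSP3 b, and where signals under 32 were set to 32. SLC1A6 was not called either with the array letter as a block in the fit. SLC1A1 (EAAT3), listed for its call, was opposite in direction, at 7.27 and 1.86 units in CD24hi, 44.5 and 34.3 in MSP1, 62.8 and 33.8 in MSP2 and 205 and 122 in MSP3. It was dim in CD24hi, at least 2.06-fold higher in the MSP mean (4.16 ± 0.60), and highest on the MSP3 arrays.

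SLC38A4, a sodium-coupled carrier of neutral amino acids, is listed for its call, with signals of 9.53 and 3.19 units in CD24hi, 189 and 184 in MSP1, 361 and 226 in MSP2 and 283 and 317 in MSP3. Both CD24hi arrays were dim and every MSP array was at least 184 units, so that it was at least 7.87-fold higher (5.51 ± 0.47). SLC38A6, of the same family, was bright in all groups, at 277 and 125 units in CD24hi, 768 and 856 in MSP1, 834 and 898 in MSP2 and 614 and 1033 in MSP3, and 4.42-fold higher in MSP (2.14 ± 0.41). The promoters of SLC38A4 and SLC1A6 are shown because their fitted log2 differences were the highest and the lowest among the genes under the threshold. One side of each is dim, so that this order is not one of size: by lower bound SLC7A2 was higher by more than SLC38A4, and SLC7A8 and SLC1A3 were lower by more than SLC1A6. Neither holds any of the 3 motifs.
SLC38A4, chr12:46825998-46826247, minus strand: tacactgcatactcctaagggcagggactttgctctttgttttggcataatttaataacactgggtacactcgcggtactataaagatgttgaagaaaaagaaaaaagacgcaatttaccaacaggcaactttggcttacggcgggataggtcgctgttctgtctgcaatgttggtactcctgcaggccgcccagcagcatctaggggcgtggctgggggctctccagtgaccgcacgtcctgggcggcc
SLC1A6, chr19:15010644-15010893, minus strand: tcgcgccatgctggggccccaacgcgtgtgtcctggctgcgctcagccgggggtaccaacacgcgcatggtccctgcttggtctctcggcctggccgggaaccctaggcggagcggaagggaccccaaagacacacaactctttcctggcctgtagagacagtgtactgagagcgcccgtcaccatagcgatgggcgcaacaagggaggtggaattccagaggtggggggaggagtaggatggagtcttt

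**Figure D3:**
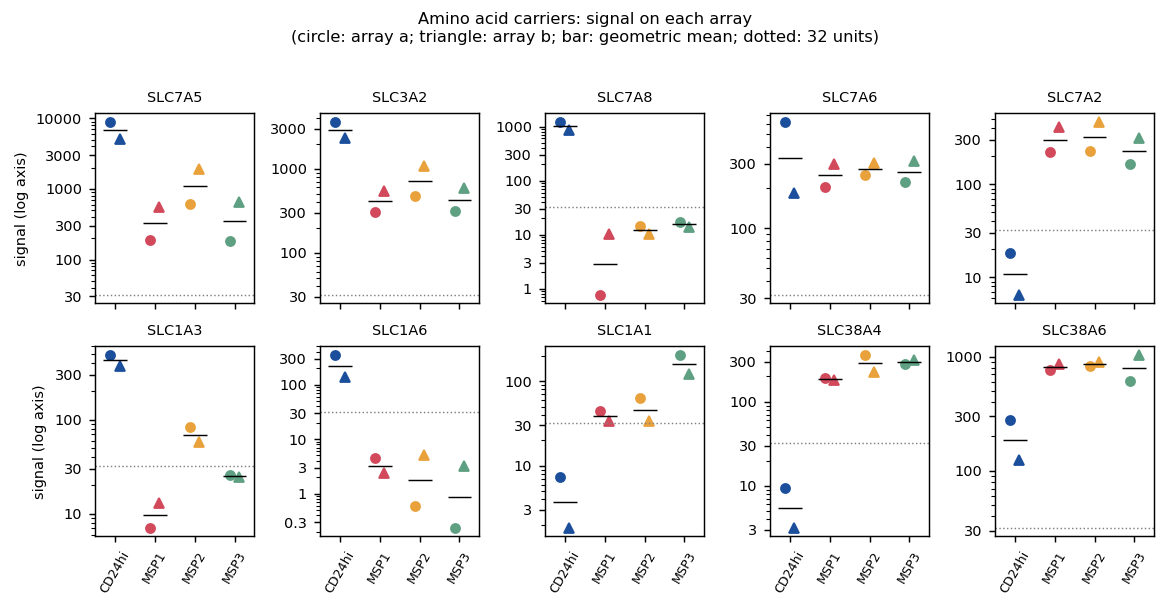
Signal on a log axis (y axis) of 10 amino acid carriers on each array, by group (x axis); circles are array a, triangles array b, bars the geometric mean of a group and the dotted line 32 units. SLC7A5 and SLC3A2 are highest in CD24hi and show the same order of arrays in every group, and SLC7A2, SLC38A4 and SLC1A1 are dim in CD24hi.

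Among sugar carriers the main glucose transporters did not pass the test. SLC2A1 (GLUT1), the widespread basal glucose transporter, had signals of 977 and 262 units in CD24hi, 315 and 379 in MSP1, 289 and 337 in MSP2 and 317 and 343 in MSP3. The MSP arrays lay between the CD24hi arrays, and the difference of -0.62 ± 0.52 (adjusted p = 0.623) was 0.33 without CD24hi a and -1.57 without b. SLC2A3 (GLUT3), a high-affinity glucose transporter, was at 309 and 280.0 units in CD24hi, 196 and 199 in MSP1, 144 and 172 in MSP2 and 201 and 265 in MSP3. It was lower on every MSP array, by -0.61 ± 0.27 (adjusted p = 0.345). SLC37A4, which carries glucose 6-phosphate into the endoplasmic reticulum, was above CD24hi on every MSP array by 0.73 ± 0.31, also without passing (adjusted p = 0.317).

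The other 3 sugar-group genes are listed for their call. SLC2A9 (GLUT9), mainly a urate transporter, was at 555 and 342 units in CD24hi, 35.04 and 33.0 in MSP1, 34.5 and 33.4 in MSP2 and 39.0 and 24.1 in MSP3, and was 13.3-fold lower in MSP (-3.73 ± 0.34). SLC37A2, a sugar phosphate exchanger, was at least 8.56-fold lower (-3.35 ± 0.48). SLC2A13, the proton-coupled myo-inositol transporter, was 2.13-fold higher (1.09 ± 0.29).

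Of 10 ion carriers, 8 were named by position, of which 1 rose and 1 fell (background 2.25% and 2.98%). SLC20A1 and SLC20A2 (PiT1 and PiT2) are paralogous sodium-phosphate cotransporters. SLC20A2 was at 383 and 247 units in CD24hi, 91.1 and 98.4 in MSP1, 86.2 and 75.2 in MSP2 and 91.6 and 103 in MSP3. It fell 3.40-fold, by -1.77 ± 0.29 (limma adjusted p = 0.0367), all MSP arrays lying below both CD24hi arrays; the call was lost when any single array was left out. With the array letter as a block in the fit, SLC20A2 was not called. The signals of SLC20A1 were 8740.1 and 3696 units in CD24hi, 3682 and 4292 in MSP1, 4262 and 5608 in MSP2 and 5056 and 5274 in MSP3, and with overlapping arrays its difference of -0.29 ± 0.40 did not pass (adjusted p = 0.779). SLC4A8, a sodium-driven chloride and bicarbonate exchanger, rose from dim signals, at 9.08 and 5.39 units in CD24hi, 55.5 and 80.1 in MSP1, 33.8 and 61.1 in MSP2 and 83.3 and 94.8 in MSP3. The increase was at least 2.02-fold (3.21 ± 0.39; adjusted p = 0.0136), and the call was lost without CD24hi b and where signals under 32 were set to 32.

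Both sulfate carriers of the SLC26 family were higher on all MSP arrays. SLC26A2, which supplies sulfate for proteoglycans of the matrix, was at 1476 and 409 units in CD24hi, 2869 and 3031 in MSP1, 1809 and 2426 in MSP2 and 2897 and 3139.8 in MSP3. Its difference of 1.77 ± 0.51 did not pass (adjusted p = 0.157), being 2.70 without CD24hi a and 0.85 without b. SLC26A11, listed for its call, was 2.98-fold higher (1.58 ± 0.29). SLC12A2 (NKCC1), the sodium, potassium and chloride cotransporter, gave 590.3 and 152 units in CD24hi, 219 and 290.3 in MSP1, 208 and 288 in MSP2 and 199 and 303 in MSP3, with the MSP arrays between the CD24hi arrays (-0.28 ± 0.56; adjusted p = 0.859). SLC12A8, of the same family and listed for its call, was at least 3.46-fold lower (-2.29 ± 0.46).

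None of the 9 metal carriers named by position was called at a background of 5.23%. SLC31A2, a copper transporter of intracellular membranes, was at 1965 and 609 units in CD24hi, 218 and 256 in MSP1, 204 and 216 in MSP2 and 185 and 283 in MSP3. It was below CD24hi on every MSP array with a 4.87-fold ratio, but the difference of -2.28 ± 0.49 did not pass (adjusted p = 0.0779); it was -1.44 without CD24hi a and -3.13 without b. Its paralogue SLC31A1, the main copper importer of the plasma membrane, differed by -0.13 ± 0.36 (adjusted p = 0.900). The zinc importer SLC39A6 (LIV-1) had signals of 6494 and 2385 units in CD24hi, 2506 and 3136 in MSP1, 1958 and 2611 in MSP2 and 2361 and 2842 in MSP3. Its arrays overlapped (-0.63 ± 0.44; adjusted p = 0.553). SLC39A14, which imports zinc and iron, differed by 0.30 ± 0.29 (adjusted p = 0.678), and by -0.07 as the mean of its probe sets. SLC30A9 and SLC39A7 were higher on every MSP array by 0.66 and 0.67, neither passing. The zinc importer SLC39A4, listed for its call, was at 377 and 794 units in CD24hi, 138 and 102 in MSP1, 183 and 140.2 in MSP2 and 204 and 124 in MSP3, and 3.78-fold lower in MSP (-1.92 ± 0.41). Its CD24hi b signal was above a, the reverse of 59 of the 75 genes.

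Of the 4 nucleoside and nucleotide sugar carriers, all named by position, SLC29A2 fell, as did 2.98% of background genes. It reached the limit of 64 in CD24hi only, so that some difference was needed for it to be kept. The equilibrative nucleoside transporter SLC29A2 (ENT2) was at 83.5 and 92.2 units in CD24hi, 18.0 and 14.4 in MSP1, 20.3 and 19.6 in MSP2 and 11.1 and 24.9 in MSP3. CD24hi was at least 2.74-fold higher (-2.33 ± 0.38; adjusted p = 0.0335). The call was lost without any one of 7 of the 8 arrays, and the mean of its 5 probe sets gave -1.04 (adjusted p = 0.121). A fit with the array letter as a block did not call SLC29A2. SLC29A1 (ENT1), its paralogue, gave 1373 and 745 units in CD24hi, 480.1 and 609.6 in MSP1, 445 and 762 in MSP2 and 509 and 743 in MSP3 with overlapping arrays (-0.81 ± 0.40; adjusted p = 0.393). SLC35B1 and SLC35A1, carriers of the endoplasmic reticulum and Golgi, differed by -0.32 and 0.26, neither passing.

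**Figure D4:**
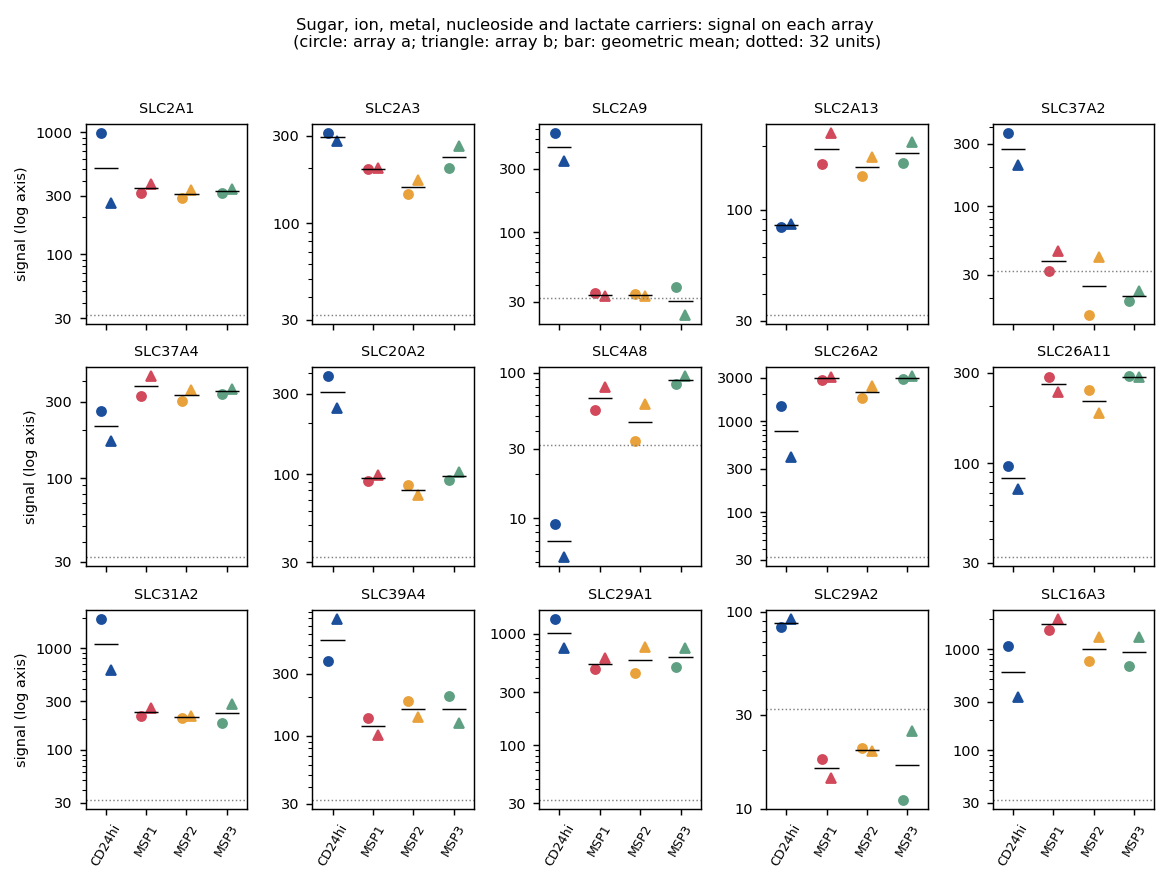
Signal on a log axis (y axis) of sugar, ion, metal, nucleoside and lactate carriers on each array, by group (x axis); circles are array a, triangles array b, bars the geometric mean of a group and the dotted line 32 units. SLC20A2 is lower on all MSP arrays, while for SLC2A1 they lie between the 2 CD24hi arrays.

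Mitochondrial carriers had the median nearest 0 of the substrate groups, at -0.09 over the 10 named by position, and 0 of these were called, where 5.23% of background genes were. The phosphate carrier SLC25A3 had overlapping arrays, at 6610.3 and 6006 units in CD24hi, 6368 and 5733 in MSP1, 7055 and 6419 in MSP2 and 7758 and 5909.6 in MSP3 (0.05 ± 0.27; adjusted p = 0.956). The adenine nucleotide translocases SLC25A4 and SLC25A5 differed by 0.03 (-0.03 after quantile normalization) and -0.16. SLC25A13 (citrin), the aspartate and glutamate carrier of the malate-aspartate shuttle, was lower on every MSP array, at 851 and 633 units in CD24hi, 274 and 349 in MSP1, 168 and 285 in MSP2 and 197 and 289 in MSP3. Its difference of -1.54 ± 0.36 did not pass (adjusted p = 0.0943) and was -0.52 as the mean of its 2 probe sets. The paralogue SLC25A12 differed by -0.03. Of the 2 genes listed for their call, the iron importer SLC25A37 (mitoferrin 1) was at least 1.91-fold higher (2.03 ± 0.31) and SLC25A29, which carries basic amino acids, was 2.83-fold higher (1.501 ± 0.28).

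None of the 5 carriers of monocarboxylates and other organic solutes named by position was called, at a background of 5.23%. SLC16A1 (MCT1), which moves lactate and pyruvate with a proton, was at 2176 and 1766 units in CD24hi, 1063 and 1459 in MSP1, 979 and 1606 in MSP2 and 865 and 1455 in MSP3. It was lower on every MSP array (-0.70 ± 0.37; adjusted p = 0.421). SLC16A3 (MCT4), a lactate exporter of glycolytic cells, gave 1073 and 334 units in CD24hi, 1537 and 1996 in MSP1, 766 and 1301 in MSP2 and 672 and 1304 in MSP3. Its difference of 0.98 ± 0.55 (adjusted p = 0.457) was 1.82 without CD24hi a and 0.14 without b. SLC17A5 (sialin), the lysosomal exporter of sialic acid, is listed for its call and was 2.43-fold higher (1.28 ± 0.30).

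The creatine transporter SLC6A8 is listed for its call, with signals of 555 and 760.3 units in CD24hi, 72.9 and 71.9 in MSP1, 90.8 and 67.6 in MSP2 and 86.9 and 48.0 in MSP3. It was 9.08-fold lower in MSP (-3.18 ± 0.35), and the probe set for its pseudogene SLC6A10P, at 6.52-fold lower, is uncertain because the copies are near-identical; how far they share signal was not tested. The GABA transporter SLC6A11 was lower on every MSP array without passing (-2.85 ± 0.93; adjusted p = 0.208). Among choline transporter-like genes, both listed for their call, SLC44A3 was at least 2.39-fold lower (-3.33 ± 0.49) and SLC44A1 was 2.65-fold higher (1.40 ± 0.32). The vitamin carriers SLC5A6 (biotin and pantothenate) and SLC19A1 (reduced folate) differed by -0.64 and -0.68, neither passing. In the group with other or unknown substrates, SLC35F3 was at least 6.32-fold lower (-4.45 ± 0.74; -2.53 as the mean of 2 probe sets) and SLC45A3 was lower by -1.67 ± 0.33, both listed for their call. The acetyl-CoA transporter SLC33A1 differed by -0.29 ± 0.52 with overlapping arrays (adjusted p = 0.837).

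Against CD24hi one group at a time, fewer carriers were called. Of the 53 named by position, 2 were called in MSP1, 0 in MSP2 and 2 in MSP3, against 3.21%, 3.04% and 2.98% of the background. The limma p before adjustment was under 0.05 for 10, 11 and 10, counts not made over the background. These comparisons share the CD24hi arrays. In each of MSP1 and MSP3 the called genes were SLC4A8, higher, and SLC1A3, lower.

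Between the mesenchymal groups limma called 0 of the 75 carriers in any pair, where 0% of the background was called too. An unadjusted p under 0.05 was found for 2 genes between MSP1 and MSP2, 2 between MSP1 and MSP3 and 1 between MSP2 and MSP3. With signals under 32 raised to 32, differences of more than 2-fold were seen for 2, 1 and 4 genes. The arrays of the pair did not overlap for 23, 16 and 19. Apart from the calls, these counts of genes were not made over the background, so nothing particular to the carriers is read from them. SLC1A3 had the lowest adjusted p between MSP1 and MSP2 (0.333), with MSP1 lower by 2.85 ± 0.44 (SE) on the log2 scale. SLC6A11 was at 33.1 and 33.7 units in MSP1, next to the dim limit, and dim in MSP2 and MSP3. SLC7A5 was highest in MSP2, with geometric means of 325 in MSP1, 1091 in MSP2 and 349 in MSP3; neither difference passed, and the MSP2 and MSP3 arrays overlapped.

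Other transport genes and enzymes that act with these carriers were read from a list of 38, of which 23 were measured: 0 were higher, 2 were lower and the median was -0.40. FXYD3, a regulator of the sodium pump whose gradient drives many carriers, fell from 1516 and 1362 units in CD24hi to 1.72 to 5.33 on the MSP arrays, at least 44.9-fold (-8.91 ± 0.47, SE; adjusted p = 0.00231). AQP3, a water and glycerol channel listed for its call, was 22.2-fold lower. ASNS, the asparagine synthetase induced when amino acids are short, was at 903 and 1587 units in CD24hi, 547 and 816 in MSP1, 2767 and 3177 in MSP2 and 571 and 927 in MSP3; it was highest on the MSP2 arrays and did not pass against CD24hi (-0.08; adjusted p = 0.943). ATF4, the factor of that response, and its target TRIB3 did not pass either (-0.13, adjusted p = 0.881, and -1.49, adjusted p = 0.230). Hexokinase HK2, which phosphorylates imported glucose, was lower on 6 of 6 MSP arrays (-2.02 ± 0.56, SE; adjusted p = 0.146).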

How the data were processed

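Total RNA of 8 samples, 2 per group, was hybridised to Affymetrix arrays of 54675 probe sets. The submitters' processing notes name Affymetrix Expression Console and limma, without versions. The deposited values of the series matrix are intensities per probe set on a linear scale, and were converted to log2 here. The trimmed means show that the authors had scaled every array alike. The authors' deposited table of comparisons pairs probe sets with symbols and gives a p-value for each MSP group against CD24hi; here it served for symbols and for the listing order, and its p-values only to find the opening block of 2256 probe sets.

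From the log2 of the deposited intensities, limma 3.58.1 (R 4.3.3) fitted a mean per group over all 8 arrays and moderated the variances with eBayes. No offset or filter was used, and p-values were Benjamini-Hochberg adjusted over 54613 probe sets that are not controls. The spread was thus pooled over groups, although the CD24hi arrays differed more from each other than the MSP arrays of a group did. An SE may therefore be too narrow against CD24hi and too wide between MSP groups. Each gene is read through its brightest probe set. The fit was tested on simulated data.

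The genes and lists were chosen with earlier results of these data known, including the selection rule, which used signal levels and the authors' symbols. Genes were named by a rule: 12 well-known carriers where measured (3 were not), per substrate group the brightest gene and up to 4 called genes with the widest difference, and the genes next to the limit, which gave 33 genes. A further 24 with values on every array or a clause were chosen after their values were seen, as were the promoters of SLC7A5 and SLC3A2; remaining genes are given by a difference only or within counts, and 1 gene is not reported by name here. Sequences come from RefSeq promoters of GRCh38.p14. Alternatives were quantile normalization, a floor of 32, a filter on dim probe sets, the mean of a gene's probe sets, 1 probe set per gene, moderation with an intensity trend, the array letter as a block, and each array left out in turn.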

Additional observations from a re-analysis of the deposited data

Results flagged for a closer look

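SLC25A14, a mitochondrial carrier, had signals of 182 and 217 units in CD24hi, 176 and 162 in MSP1, 173 and 216 in MSP2, and 235 and 240 in MSP3. It was singled out because both MSP3 arrays lay above, and both MSP1 arrays below, the 2 CD24hi arrays. MSP1 was lower than MSP3 by -0.49 log2 ± 0.33 (SE), which did not pass the limma test (adjusted p = 1.00).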

How the results depend on the processing

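Counts over all 75 carriers pool the 22 listed for their call, so they show only how the threshold moves. The 17 called in the MSP mean (12 of them so listed) were 31 with only probe sets of 64 units or more, 30 with 1 probe set per named gene and 31 with an intensity trend. In the same 3 settings the counts were 28, 21 and 22 for MSP1 (7 in the main setting), 28, 24 and 22 for MSP2 (5), 29, 23 and 24 for MSP3 (7), and 10, 9 and 10 for the 53 carriers named by position (5, or 3 with a floor of 32); the background called was 13.4%, 10% and 10.9% (5.23%, or 4.86% with the floor). Leaving out 1 array at a time gave 4 to 9 calls in the MSP mean, 0 to 4 in MSP1, 0 to 2 in MSP2, 0 to 3 in MSP3 and 2 to 4 among the genes named by position (background 2.47% to 3.38%). The array letter as a replicate block gave 11, 3, 2, 4 and 2 (background 4.46% in the MSP mean), and SLC1A6, SLC20A2 and SLC29A2 were not called. Deviations of a arrays correlated at -0.348, -0.291 and -0.273 between CD24hi and the MSP groups and at 0.559 to 0.705 among the MSP groups, so that same-letter arrays did not deviate together across all 4 groups. A replicate block over the MSP arrays alone, added after seeing the data, left 0 calls in every MSP pair. Single differences changed sign without 1 array for SLC12A2 (-1.25 to 0.70), SLC19A1 (-1.37 to 0.0114), SLC20A1 (-0.91 to 0.33), SLC25A3 (-0.0231 to 0.12), SLC25A4 (-0.383 to 0.441), SLC25A12 (-0.0823 to 0.0206), SLC25A14 (-0.1335 to 0.1195), SLC31A1 (-0.672 to 0.403), SLC35A1 (-0.425 to 0.943), SLC2A1 (-1.57 to 0.33), SLC33A1 (-1.11 to 0.53), SLC35B1 (-0.90 to 0.26), SLC39A6 (-1.35 to 0.0918), SLC4A1AP (-0.0485 to 0.0573), SLC5A6 (-1.48 to 0.20) and SLC7A6 (-1.236 to 0.531), with the mean of probe sets for SLC39A14 (-0.0677) and SLC25A4 (-0.209), and with quantile normalization for SLC25A4 (-0.027). The causes were not tested. A limit of 32 units in place of 64 kept 83 genes, a limit of 2 times 64 kept 64, and geometric in place of arithmetic group means kept 73.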
